A study of Mus musculus with 34 samples.

Results

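The genes described here are 10 that encode NFkB subunits or inhibitors which NFkB itself switches on. The subunit gene Rela is not among them and was counted with the other genes of the pathway. The 10 members are Nfkbia, Nfkbiz, Nfkbie, Bcl3, Tnfaip3, Tnip1, Nfkb1, Nfkb2, Rel and Relb. Every ChIP-seq peak whose midpoint lay in the body of one of these genes or within 20 kb of it was taken, which gave 1288 of the 596383 peaks in 30 lists. The gene bodies were those of GENCODE on mm10, and the choice used no peak count. Peaks of any list that shared at least 1 bp were joined into a locus, and the 1288 peaks fell into 186 of 93024 loci. The lists came from thioglycollate-elicited macrophages (TGEMs), that is, cells drawn into the peritoneal cavity by an injected irritant and then cultured, here from male mice. C57 lists (C57Bl/6EiJ in the labels) covered the AP-1 monomers ATF3, Jun, JunD, Fos, FosL2 and JunB, and also PU.1 and CEBPa, each after vehicle (Veh, PBS) and after 1 h of KLA at 100 ng/mL, and PPARg in Veh alone. BALB lists (Balb/cJ) covered ATF3, Jun, JunD, Fos and JunB in both treatments, and PPARgKO lists, from C57 mice that lack PPARg, covered ATF3, Jun and JunD in Veh. KLA is the lipid part of endotoxin and activates macrophages through the receptor TLR4. The mice of both wild-type strains were 8 weeks old, and the sources used here do not give the allele or the Cre line of the knockout. No PPARg list of PPARgKO cells was analysed here, so the loss of PPARg could not be checked, and peak lists hold no expression values with which the identity of the cells could be checked.

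Each condition has 1 list, in which the authors had already combined replicate experiments, so no difference between conditions could be tested against replicate error. The lists held between 0 and 41573 peaks and their counts, which are not scaled to library size, summed to at most 13809143. Counts were therefore used only to rank peaks within a list, and a percentile is the share of the peaks of the same list with a lower count. Member loci are described beside all loci of the same lists, and 95% Wilson intervals cover the number of loci only. These intervals treat loci as independent, although many lie in the window of the same gene, so they may be too narrow.

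NFkB is a family of dimeric transcription factors, which inhibitor proteins hold in the cytoplasm until a signal such as that of TLR4 removes them. The genes for several of these inhibitors are themselves targets of NFkB, so that activation brings about its own end. AP-1 is a second family of dimeric factors which the same signals activate, and in macrophages both act at sites that PU.1 and CEBP factors keep open.

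The sequence shown for a gene comes from its locus with peaks in the most lists. No list of an NFkB subunit was analysed here, and peaks of different lists at a locus need not overlap each other. A locus is named by its gene and by the bp from the annotated start of the gene to its centre, with minus for upstream. Matches on either strand are in capitals for 5 motifs: the TRE of AP-1 (TGACTCA or TGAGTCA), the CRE of AP-1 (TGACGTCA, TGAGCTCA, TGACCTCA or TGAGGTCA), the NFkB motif of 10 bases, the PU.1 motif ACTTCCT and the composite motif TGATGCAA. The stretches come from the RefSeq sequence of GRCm38, are written 5′ to 3′ on the strand of the gene and leave out UTRs. They are chr12:55474025-55474174 and chr12:55492648-55492897 (both minus strand) for Nfkbia, chr16:55798951-55799100 (minus) for Nfkbiz, chr17:45555469-45555618 (plus) for Nfkbie, chr7:19824308-19824457 (minus) for Bcl3 and chr10:19015418-19015547 (minus) for Tnfaip3. Those of the other genes are chr11:54936117-54936266 and chr11:54954080-54954329 (both minus) for Tnip1, chr19:46305426-46305575 (plus) for Nfkb2 and chr11:23754381-23754530 (minus) for Rel. Nfkbia -106, the promoter, and Tnip1 +8712, the highest ranked member locus in 7 of the 11 KLA lists of AP-1 monomers, were added after their values were seen.
Nfkbia +18547: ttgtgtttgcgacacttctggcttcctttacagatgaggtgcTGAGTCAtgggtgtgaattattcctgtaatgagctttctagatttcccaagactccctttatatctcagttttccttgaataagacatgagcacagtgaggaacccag
Nfkbia -106: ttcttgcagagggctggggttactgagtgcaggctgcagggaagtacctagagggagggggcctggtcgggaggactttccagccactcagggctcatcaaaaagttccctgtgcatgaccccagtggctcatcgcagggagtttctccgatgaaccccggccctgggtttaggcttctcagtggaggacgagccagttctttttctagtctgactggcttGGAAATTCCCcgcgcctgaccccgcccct
Nfkbiz +39873: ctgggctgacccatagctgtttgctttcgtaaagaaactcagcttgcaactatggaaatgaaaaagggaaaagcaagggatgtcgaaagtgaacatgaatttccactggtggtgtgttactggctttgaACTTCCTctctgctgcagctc
Nfkbie -159: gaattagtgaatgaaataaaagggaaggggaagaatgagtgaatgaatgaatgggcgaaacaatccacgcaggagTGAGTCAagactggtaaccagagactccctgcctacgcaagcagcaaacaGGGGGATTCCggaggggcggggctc
Bcl3 -1613: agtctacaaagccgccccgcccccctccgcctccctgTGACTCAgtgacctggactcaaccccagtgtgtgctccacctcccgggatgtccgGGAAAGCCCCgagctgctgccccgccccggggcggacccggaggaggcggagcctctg
Tnfaip3 +135: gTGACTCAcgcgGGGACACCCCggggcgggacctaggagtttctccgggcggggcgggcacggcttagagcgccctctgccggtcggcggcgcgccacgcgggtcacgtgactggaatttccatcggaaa
Tnip1 +26725: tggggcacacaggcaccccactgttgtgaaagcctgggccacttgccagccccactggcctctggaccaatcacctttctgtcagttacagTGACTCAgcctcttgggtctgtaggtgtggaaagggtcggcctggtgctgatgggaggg
Tnip1 +8712: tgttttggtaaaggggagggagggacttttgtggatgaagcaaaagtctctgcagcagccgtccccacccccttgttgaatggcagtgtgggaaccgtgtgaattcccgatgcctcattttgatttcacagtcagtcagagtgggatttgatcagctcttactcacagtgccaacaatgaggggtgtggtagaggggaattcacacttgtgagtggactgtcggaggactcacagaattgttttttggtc
Nfkb2 +1181: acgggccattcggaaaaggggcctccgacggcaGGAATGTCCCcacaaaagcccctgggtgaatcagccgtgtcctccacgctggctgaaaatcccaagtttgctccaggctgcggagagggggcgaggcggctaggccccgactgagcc
Rel +16514: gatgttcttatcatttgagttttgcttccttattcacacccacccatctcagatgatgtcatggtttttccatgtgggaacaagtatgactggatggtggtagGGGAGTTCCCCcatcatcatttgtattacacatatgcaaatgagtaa
An NFkB match stood in the printed stretches at Nfkbia -106, Nfkbie -159, Bcl3 -1613, Tnfaip3 +135, Nfkb2 +1181 and Rel +16514, where 2 matches overlap by all but 1 base. A TRE stood beside it at Nfkbie -159, Bcl3 -1613 and Tnfaip3 +135, and alone at Nfkbia +18547 and Tnip1 +26725, and Nfkbiz +39873 held a PU.1 motif. The stretch of Tnip1 +8712 held none of the 5 motifs. The most widely bound loci of Nfkb1 and Relb are not printed, since their motifs lay outside the stretches that could be shown: Nfkb1 +35 had 1 NFkB and 1 PU.1 match in its central 200 bp, and Relb +851 had 1 of each elsewhere in the locus.

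The members stood in densely bound regions. They had a median of 19.8 peaks per 10 kb of window over the 30 lists, against a median of 2.24 over 21938 protein-coding genes, of which 24.4% had no peak at all. Tnfaip3 was the densest at 32.1 peaks per 10 kb and Relb the sparsest at 3.32. Of the 186 loci, 155 had a peak of an AP-1 monomer in some list, and 28 (15.1%) had peaks in 15 or more lists, against 14.4% of all loci. Introns of the member itself held 84 loci and intergenic DNA held 67, whereas 21 lay within 1 kb of the member's start. A further 21 loci were nearest to the start of another protein-coding gene, and 10 of these were among the 16 of Nfkbie, which stands close to Slc35b2 and Hsp90ab1. Member peaks were found in 26 lists, and those without any were the 4 lists of Fos and JunB in Veh. In C57 Veh, 13.5% of protein-coding genes had a Fos peak in their window and 2.35% a JunB peak, and in BALB Veh 0.0501% had a JunB peak and none a Fos peak.

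**Figure D1:**
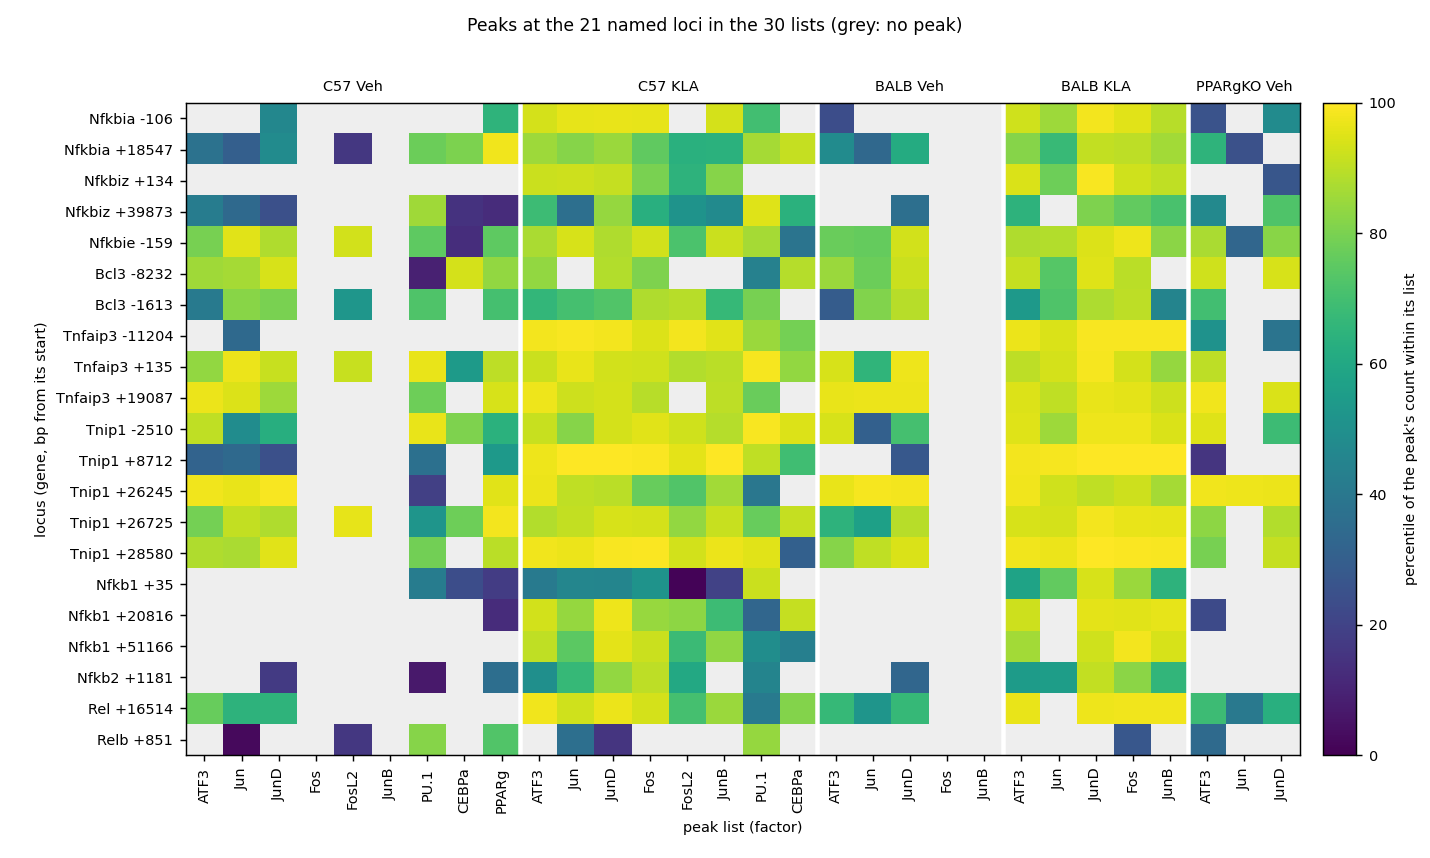
Percentile of the peak count within its list (colour, 0 to 100) at the 21 named loci (rows) in the 30 lists (columns, grouped by strain, genotype and treatment), with grey where a list has no peak. Nfkbiz +134 and the 3 Nfkb1 loci are grey in every C57 Veh list of an AP-1 monomer and filled in all 6 KLA lists.

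Named loci were the most widely bound one of each gene and the 15 with a peak among the strongest 5% of an AP-1 list, which made 21 because 4 loci were both. Tnip1 had 5 of these 15, Tnfaip3 had 3, Nfkb1 had 2, and Nfkbia, Nfkbiz, Nfkbie, Bcl3 and Rel had 1 each. Nfkb2 and Relb had none.

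Nfkbia encodes IkBa, the inhibitor that NFkB induces fastest and that carries it back out of the nucleus. Its promoter locus, Nfkbia -106 (chr12:55492528-55493084), had 1 AP-1 peak in C57 Veh, of JunD at percentile 46.4, and 5 after KLA. The KLA percentiles were 93.7 for ATF3, 96.3 for Jun, 96.7 for JunD, 96.1 for Fos and 93.6 for JunB, with no FosL2 peak. All 5 stood above the percentile of JunD in Veh. A PU.1 peak was listed there only after KLA, at percentile 69.6. The widely bound locus Nfkbia +18547, downstream of the gene, already had ATF3, Jun, JunD and FosL2 peaks in Veh, at percentiles 37.8, 30.1, 48.2 and 16.1, and had all 6 monomers between 63.3 and 85.2 after KLA. Nfkbia +3751, just past the end of the gene, differed. The highest percentile of a peak of ATF3 there was 93.1 in Veh and 55.8 after KLA, and that of Jun 72.3 and 2.1. The Veh and KLA peaks of ATF3 did not overlap each other, nor did those of Jun. They are thus neighbouring sites joined by peaks of other lists, although the locus counted as bound in both treatments by ATF3 and Jun. JunD had a peak at 87.8 in Veh and none after KLA, although FosL2 stood at 68.8 and 76.8. In BALB, JunD had peaks there at 91.7 in Veh and 88.3 after KLA, and ATF3 at 92.8 and 23.5. Of the 10 C57 AP-1 loci of Nfkbia, 4 had peaks in both treatments and 6 only after KLA.

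Nfkbiz encodes IkBz, a nuclear protein of the IkB family that NFkB needs to switch on a set of secondary genes. Nfkbiz +134 (chr16:55838633-55838928), in the 5′ UTR, had no AP-1 peak in C57 Veh. After KLA it had all 6 monomers, at percentiles 92.1 for ATF3, 92.4 for Jun, 91.2 for JunD, 79.8 for Fos, 64.7 for FosL2 and 81.9 for JunB. It had no PU.1, CEBPa or PPARg peak in any list, unlike the widely bound locus Nfkbiz +39873, where PU.1 stood at 85.7 in Veh and 95.0 after KLA. Intron locus Nfkbiz +16648 showed lower percentiles after KLA for ATF3 (77.6 and 47.0) and Jun (72.3 and 8.9), and a higher one for JunD (36.3 and 55.9).

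Nfkbie encodes IkBe, an inhibitor that acts later than IkBa. Nfkbie -159 (chr17:45555388-45555698), upstream of the start, was the most widely bound member locus, with peaks in 26 lists. It was already high in C57 Veh, at percentiles 79.4 for ATF3, 95.4 for Jun, 88.2 for JunD and 93.2 for FosL2, and after KLA the 6 monomers stood between 71.8 and 94.0. The locus was thus bound in every condition in which members were bound. Bcl3 encodes a nuclear IkB protein that binds the p50 and p52 subunits. Bcl3 -1613 (chr7:19824110-19824575) had 4 monomers in Veh and 6 after KLA, and Bcl3 -8232 had 3 in each treatment. Bcl3 gained few loci: 6 of its 8 C57 AP-1 loci had peaks in both treatments and 2 only after KLA.

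Tnfaip3 encodes A20, an enzyme that edits ubiquitin chains upstream of NFkB and so ends its activation. Tnfaip3 -11204 (chr10:19026570-19027129), upstream of the gene, had 1 AP-1 peak in C57 Veh, of Jun at percentile 34.2. After KLA it ranked 655 of 36745 for ATF3, 152 of 17480 for Jun, 564 of 31640 for JunD, 1283 of 24365 for Fos, 184 of 10619 for FosL2 and 586 of 13375 for JunB. It was the highest ranked member locus of the ATF3 and FosL2 lists of C57 KLA. In BALB KLA its percentiles ran from 94.4 for Jun to 99.2 for Fos, while no BALB Veh list had a peak there. By contrast Tnfaip3 +135, in an intron close to the start, was high before treatment, at 83.9 for ATF3, 97.0 for Jun, 91.7 for JunD and 91.5 for FosL2, and between 88.4 and 96.8 after it. Tnfaip3 -15363 was empty of AP-1 in C57 Veh and had all 6 monomers after KLA. Tnfaip3 +6194 held the highest ranked PPARg peak of any member, 423 of 31089.

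Tnip1 encodes ABIN1, which binds ubiquitin chains and brings A20 to its targets. In 20 of the 26 lists with member peaks, a locus of Tnip1 had the highest rank of all members. Tnip1 also held the most member peaks, 251 in a window of 92.1 kb, so it had more peaks that could rank highest. Tnip1 +8712 (chr11:54954030-54954475), in an intron, had weak peaks in C57 Veh, at percentiles 31.7 for ATF3, 34.2 for Jun and 24.6 for JunD. After KLA it ranked 935 for ATF3, 40 for Jun, 100 for JunD, 137 for Fos, 440 for FosL2 and 45 for JunB, and in BALB KLA it ranked 31 of 21667 for JunB. The percentiles after KLA all lay above 95. Tnip1 +26245, in an intron, was high in Veh, at percentiles 97.7 for ATF3, 96.7 for Jun and 99.2 for JunD. After KLA the percentile of ATF3 hardly differed, at 97.1, while Jun stood at 90.4 and JunD at 89.8. Close by, Tnip1 +26725 had 4 monomers in Veh and 6 after KLA. Tnip1 +28580 had the highest ranked Fos peak of a member in C57 KLA, 86 of 24365. Neighbouring loci of Tnip1 thus differed in which treatment gave the higher percentile.

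Nfkb1 encodes p105 and its product p50, and it gained the most loci in number. Of its 21 C57 AP-1 loci, 17 had peaks only after KLA, 3 in both treatments and 1 only in Veh. Its window is long, 146.9 kb, and per 10 kb it gained 1.16 loci, fewer than Tnfaip3 with 1.64, Nfkbia with 1.39 and Nfkbie with 1.26. The value of Nfkb1 per 10 kb was above that of 99.4% of protein-coding genes. The median number of gained loci was 0 over protein-coding genes and 1 over those with a C57 AP-1 locus. Nfkb1 +35, +20816 and +51166 had no AP-1 peak in C57 Veh and all 6 monomers after KLA. Nfkb1 +20816 (chr3:135670552-135670929) stood at 93.2 for ATF3, 84.1 for Jun, 97.3 for JunD, 84.5 for Fos, 83.1 for FosL2 and 68.5 for JunB, and CEBPa and PU.1 peaks were also listed there only after KLA. At the promoter locus Nfkb1 +35 (chr3:135691338-135691658) the KLA percentiles were far lower, from 1.1 for FosL2 to 51.5 for Fos. Nfkb1 +83254, which overlaps a coding exon, had the highest ranked PU.1 peak of the members in Veh, 525 of 41573, whereas its C57 AP-1 peaks had percentiles of at most 35.9.

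Rel encodes c-Rel, a subunit prominent in blood cells. Rel +16514 (chr11:23754269-23754669) was listed in Veh at 76.7 for ATF3, 64.5 for Jun and 64.9 for JunD, and after KLA at 98.0, 92.8 and 96.9, with Fos at 93.5, FosL2 at 70.6 and JunB at 84.9. PU.1 and CEBPa peaks appeared there only after KLA. Nfkb2 encodes p100 and p52 of the alternative pathway. Nfkb2 +1181 (chr19:46305287-46305825) had a JunD peak at 16.9 in Veh and 5 monomers between 49.7 and 90.0 after KLA. Relb encodes RelB, the partner of p52. Relb was the exception in C57: it had 4 loci, 2 of them with a C57 AP-1 peak, and none gained over the 6 monomers together. C57 JunD alone was listed at Relb +851 only after KLA and at Relb +24907 only in Veh. In BALB, Relb had 1 AP-1 locus in Veh and 3 after KLA. At Relb +851 the C57 AP-1 percentiles were at most 36.4, whereas PU.1 stood at 81.7 in Veh and 84.0 after KLA.

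**Figure D2:**
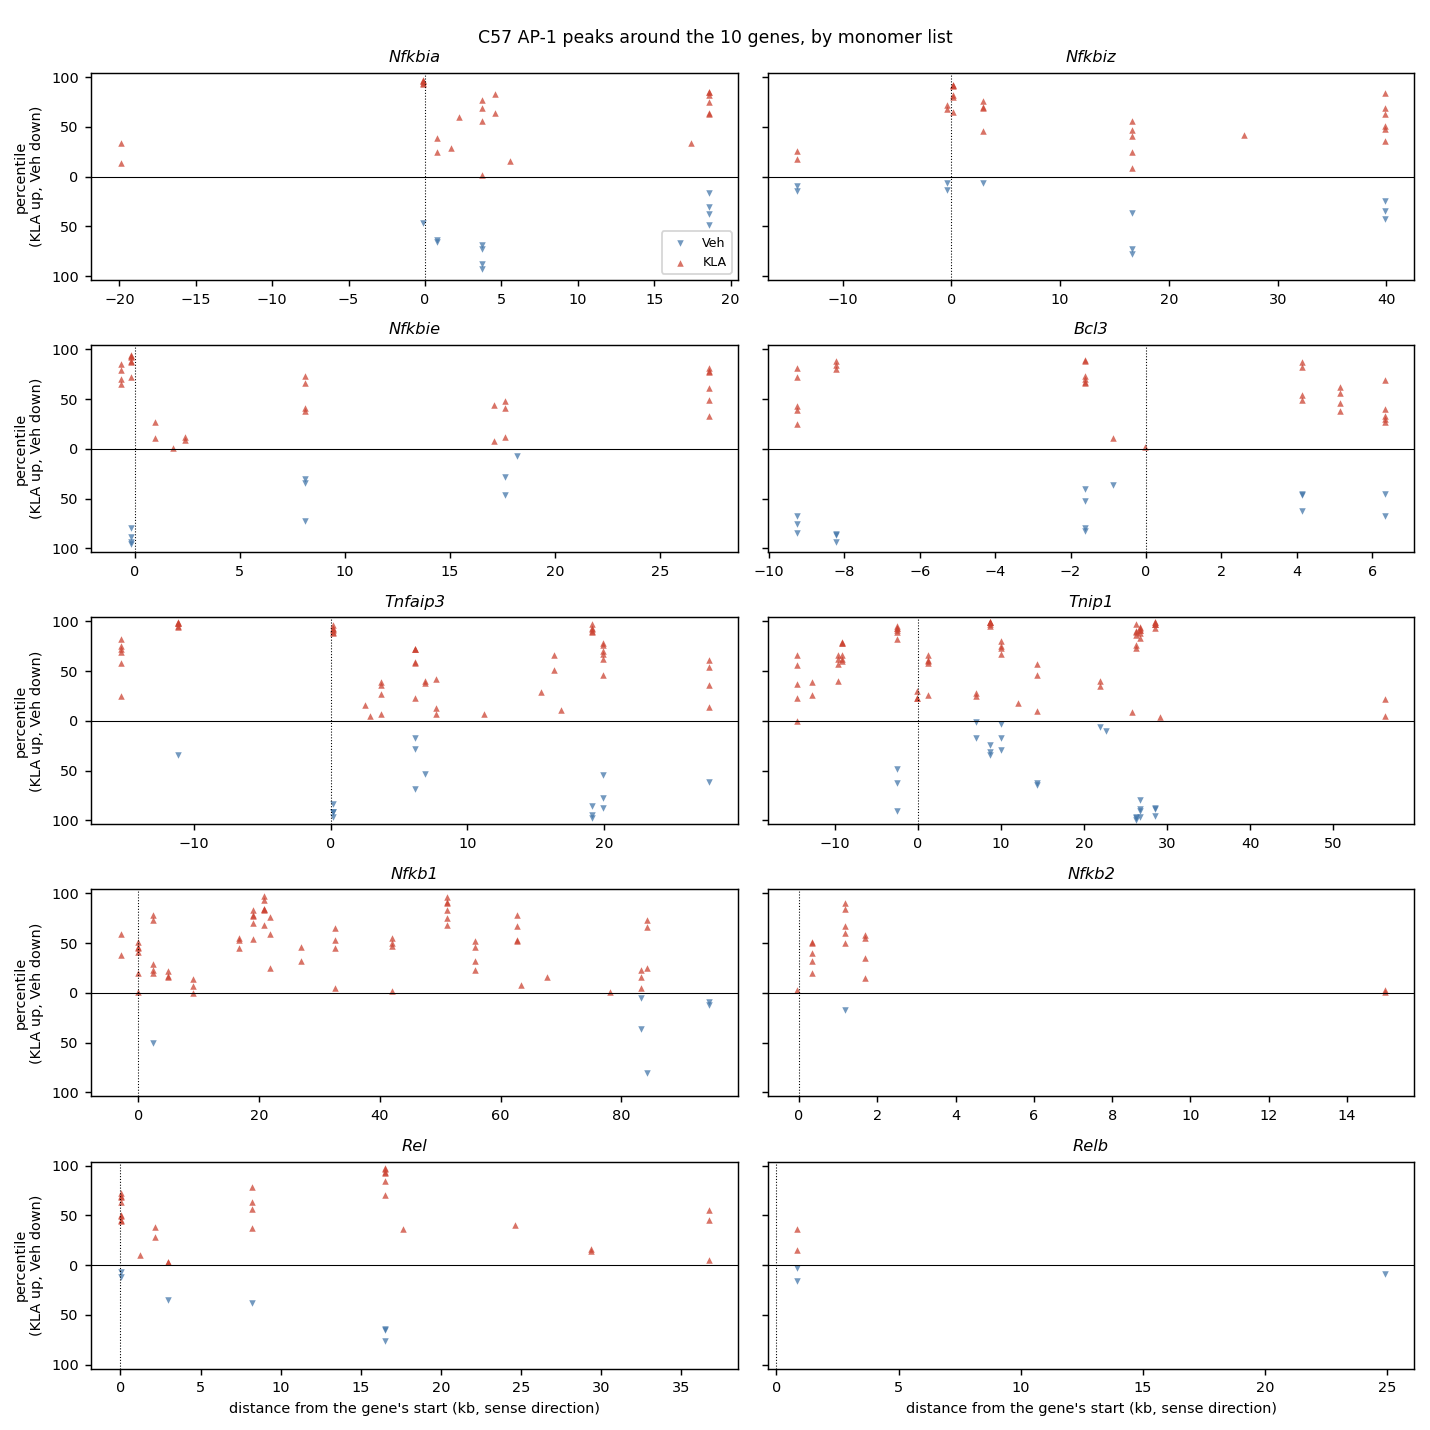
Peaks of the 6 AP-1 monomers in C57 lists around the 10 genes, by distance from the start of the gene in kb (x axis, sense direction) and by percentile within the list (y axis, KLA upwards in red and Veh downwards in blue). Nfkb1 shows 17 loci with red symbols only, and Relb shows 2 loci in all.

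KLA was compared with Veh to ask how binding changed once TLR4 was activated. The number of C57 member peaks rose from 38 to 82 for ATF3, from 28 to 48 for Jun, from 32 to 81 for JunD, from 0 to 59 for Fos, from 8 to 51 for FosL2 and from 0 to 33 for JunB. Of the 109 member loci with a C57 AP-1 peak, 62 (56.9%, interval 47.5 to 65.8) had peaks only after KLA, against a background of 38.0% of all 48864 such loci. Only 4 (3.67%) had peaks in Veh alone, against 12.9%. The gained share was above that of the genome for ATF3, Jun, JunD and FosL2, although for Jun the interval included the genome's value. It was 46 of 84 for ATF3 (54.8%, interval 44.1 to 65.0, background 43.3%), 25 of 53 for Jun (47.2%, interval 34.4 to 60.3, background 34.9%) and 53 of 85 for JunD (62.4%, interval 51.7 to 71.9, background 45.0%). It was 42 of 50 for FosL2 (84.0%, interval 71.5 to 91.7, background 59.8%). All 59 Fos loci and all 33 JunB loci counted as gained (backgrounds 92.7% and 96.6%) and none as lost (backgrounds 2.78% and 1.57%), which was fixed by the lack of any member peak in the short Veh lists of both. Lost loci numbered 3 for ATF3 (3.57%, interval 1.22 to 9.98, background 10.1%), 6 for Jun (11.3%, interval 5.29 to 22.6, background 27.0%) and 1 for FosL2 (2.0%, interval 0.354 to 10.5, background 20.2%). JunD lost 5 (5.88%, background 11.7%), and its interval, from 2.54 upwards, included the genome's value. In BALB it was 65.6% for ATF3 against 51.4%, 55.3% for Jun against 34.6% and 61.1% for JunD against 35.4%, and the lost shares were 4.44%, 10.5% and 5.31% against 8.82%, 32.3% and 23.9%. KLA lists were longer than Veh lists for every AP-1 monomer of C57. With both lists cut to the same number of peaks, the gained share of members was 40.6% for ATF3 against 24.8% over the genome, 42.9% for Jun against 30.8% and 52.9% for JunD against 27.9%.

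**Figure D3:**
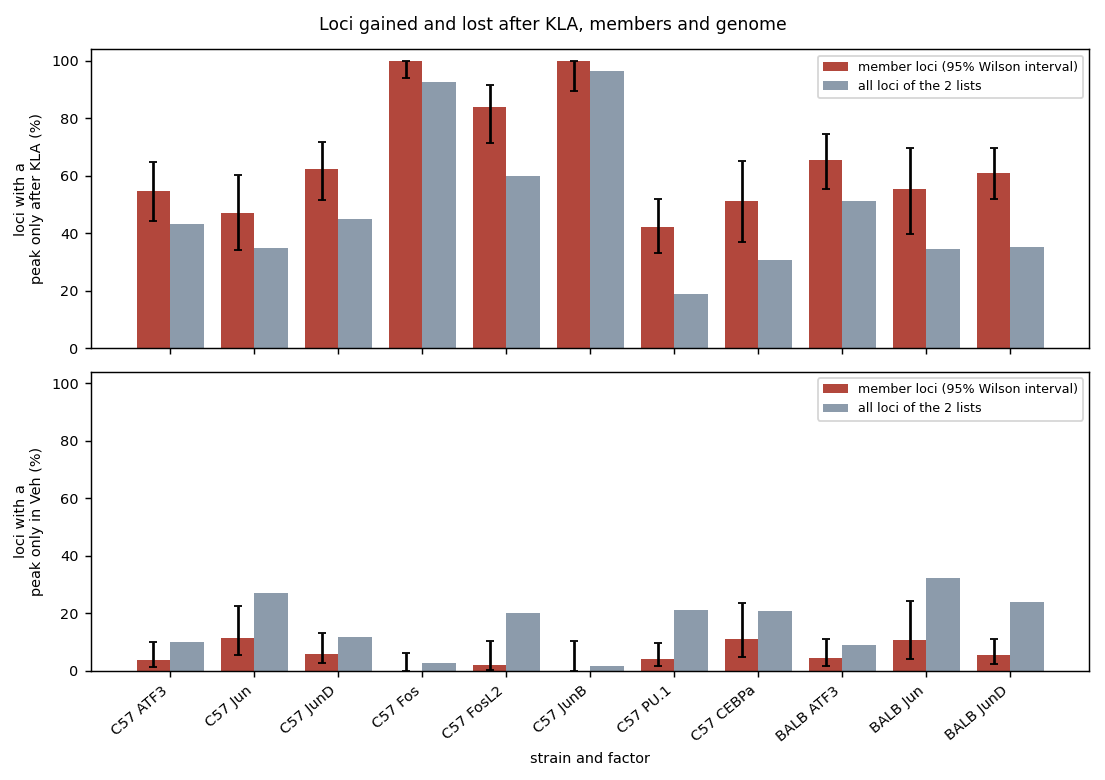
Share of loci (y axis, %) with a peak only after KLA (upper panel) and only in Veh (lower panel) for each strain and factor (x axis), in members (red, with 95% Wilson intervals) and in all loci of the 2 lists (grey). Red bars are higher than grey ones in each pair of the upper panel, as for PU.1 at 42.2% and 19.0%, and lower in each pair of the lower panel, which for Fos and JunB was fixed by the lack of member peaks in Veh.

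Among member loci bound in both treatments, the share that ranked higher after KLA was above the genome's for ATF3, Jun and JunD. The loci were few, and no interval was computed for these shares. The percentile was higher after KLA at 25 of 35 ATF3 loci (71.4%, background 64.2%), 13 of 22 Jun loci (59.1%, background 44.1%) and 20 of 27 JunD loci (74.1%, background 56.3%). For FosL2 it was higher at 3 of 7 loci (42.9%, background 59.8%), which are too few to set this monomer apart. In BALB it was higher at 21 of 27 ATF3 loci (77.8%, background 69.7%), 8 of 13 Jun loci (61.5%, background 49.7%) and 28 of 38 JunD loci (73.7%, background 48.0%). Gained loci ranked below kept ones: the median percentile in the KLA list was 43.3 at gained and 75.2 at kept ATF3 loci, 58.5 and 80.9 for Jun, and 47.4 and 84.1 for JunD. The same medians were not computed over all loci, so this order is not shown to be particular to members. After KLA, 21 of 105 member loci (20.0%, interval 13.5 to 28.6) had all 6 monomers, against a background of 13.9%, which the interval included. Of these 21 loci, 7 had no AP-1 peak in C57 Veh (33.3%), against 13.4% of all loci with 6 monomers. As a share of the 105 loci they made up 6.67%, against a background of 1.86%. No ATF3 peak was listed at 24 of the 105 (22.9%, background 14.8%). Those 7 were Nfkbiz +134, Nfkbie +27311, Tnfaip3 -15363, Tnip1 -9194 and the 3 Nfkb1 loci given above, and Nfkbie +27311 lies nearest to the start of Hsp90ab1.

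PU.1 and CEBPa, factors that establish the macrophage lineage, were listed at more member loci after KLA as well. PU.1 member peaks went from 59 to 100 while its lists hardly differed in length, with 41573 and 40645 peaks. Of 102 PU.1 loci, 43 were gained (42.2%, background 19.0%) and 4 were lost (3.92%, background 21.0%). Nfkb1 gained 8, Nfkbia 7, Nfkbiz 7, Nfkbie 5 and Tnip1 5, whereas Tnfaip3 gained 2 and lost 3. The gained PU.1 peaks were weak, with a median percentile of 33.1 against 75.8 at kept loci, and these medians were not computed over all loci. The lowest count was 110 in the Veh list and 25 in the KLA list of PU.1, and the part of this difference in the gained peaks was not tested. At PU.1 loci of both treatments, the percentile was higher after KLA at 38 of 55 (69.1%, background 51.3%). Of 45 CEBPa loci, 23 were gained (51.1%, background 30.9%) and 5 were lost (11.1%, background 20.7%), and 8 of the gained loci were at Nfkb1. At CEBPa loci of both treatments, it was higher at 15 of 17 (88.2%, background 49.1%). An AP-1 peak of KLA stood at 22 of the 43 gained PU.1 loci (51.2%, background 59.4%) and at 35 of the 55 kept ones (63.6%, background 55.6%). Of the 109 AP-1 loci, 62 had a PU.1 peak of the same treatment (56.9%, interval 47.5 to 65.8, background 54.8%), so members and genome were close in this respect.

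The comparison with PPARgKO asked which Veh binding was kept without PPARg. PPARg itself had 45 member peaks, and 30 of these loci also had a Veh peak of ATF3, Jun or JunD (66.7%, background 55.9%). In the knockout 32 of 38 ATF3 loci were kept (84.2%, interval 69.6 to 92.6, background 79.3%), 18 of 32 JunD loci (56.2%, interval 39.3 to 71.8, background 54.4%) and 6 of 28 Jun loci (21.4%, interval 10.2 to 39.5, background 22.1%). The order of the 3 monomers was that of the whole genome, and each of these intervals included the genome's value. Loci listed only in the knockout numbered 18 for ATF3 (32.1%, background 30.7%), 7 for JunD (17.9%, background 31.1%) and 0 for Jun (background 5.38%). The Jun list of the knockout was short, with 4290 peaks against 15548 in wild type, and with both lists cut to the same number of peaks 4 of 11 Jun loci were kept (36.4%, interval 15.2 to 64.6), against 53.0% of the genome. With a scaled IDR score of at least 830, 2 of 23 Jun loci were kept (8.7%, interval 2.42 to 26.8), against 19.5% of the genome. In the strongest 50% of each list 1 of 16 was kept (6.25%, interval 1.11 to 28.3), against 25.3%. The kept share of Jun stood below the genome in these 3 settings, but each interval included the genome's value. With 50 kb on each side it was 22.5% against 22.1%. The 6 kept Jun loci were Nfkbia +18547, Nfkbiz +16648, Nfkbie -159, Bcl3 -9252, Tnip1 +26245 and Rel +16514. Tnip1 +26245 ranked 99 of 4290 there and 488 of 15548 in wild type, and the percentile was lower in the knockout at the other 5. The share with a higher percentile in the knockout was thus 16.7%, near the background of 14.4%. Of the wild-type Jun loci, 5 of 21 with a PPARg peak and 1 of 7 without one were kept (23.8% and 14.3%, background 28.7% and 8.61%).

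Most C57 KLA loci of members were also bound in BALB, whereas the reverse share was lower for JunD, Fos and JunB. The reverse share of these monomers was lower over the genome as well. Of the C57 KLA loci, BALB also had 69 of 81 for ATF3 (85.2%, interval 75.9 to 91.3, background 76.9%), 28 of 47 for Jun (59.6%, interval 45.3 to 72.4, background 47.0%) and 63 of 80 for JunD (78.8%, interval 68.6 to 86.3, background 74.6%). It had 55 of 59 for Fos (93.2%, background 89.8%) and 28 of 33 for JunB (84.8%, background 79.7%). Only BALB had 17 loci of ATF3 (17.3% of the loci of either strain, background 18.8%), 6 of Jun (11.3%, background 15.3%), 44 of JunD (35.5%, background 24.5%), 43 of Fos (42.2%, background 43.1%) and 27 of JunB (45.0%, background 45.0%). The interval of this share lay above the genome's value for JunD (27.6 to 44.2) and included it for the other monomers. Of the BALB KLA loci, C57 also had 80.2% for ATF3, 82.4% for Jun, 58.9% for JunD, 56.1% for Fos and 50.9% for JunB, against 76.9%, 72.2%, 69.7%, 54.3% and 49.3% over the genome. The Fos list of BALB was longer than that of C57, with 40459 peaks against 24365. So were the JunB list, with 21667 against 13375, and the JunD list, with 33850 against 31640. In BALB, 91 of 143 AP-1 loci had peaks only after KLA (63.6%, background 42.8%). Nfkbia -106, Tnfaip3 -11204 and Tnip1 +8712 had 5 monomers in BALB KLA, which is every monomer measured there, and 1, 0 and 1 in BALB Veh. At loci of both strains after KLA, the percentile was higher in BALB at 51 of 63 for JunD (81.0%, background 59.5%), 50 of 55 for Fos (90.9%, background 84.3%), 22 of 28 for JunB (78.6%, background 72.1%) and 39 of 69 for ATF3 (56.5%, background 50.9%). For Jun it was higher in BALB at 10 of 28 loci (35.7%, background 39.0%), and Jun had the lowest share over the genome too.

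**Figure D4:**
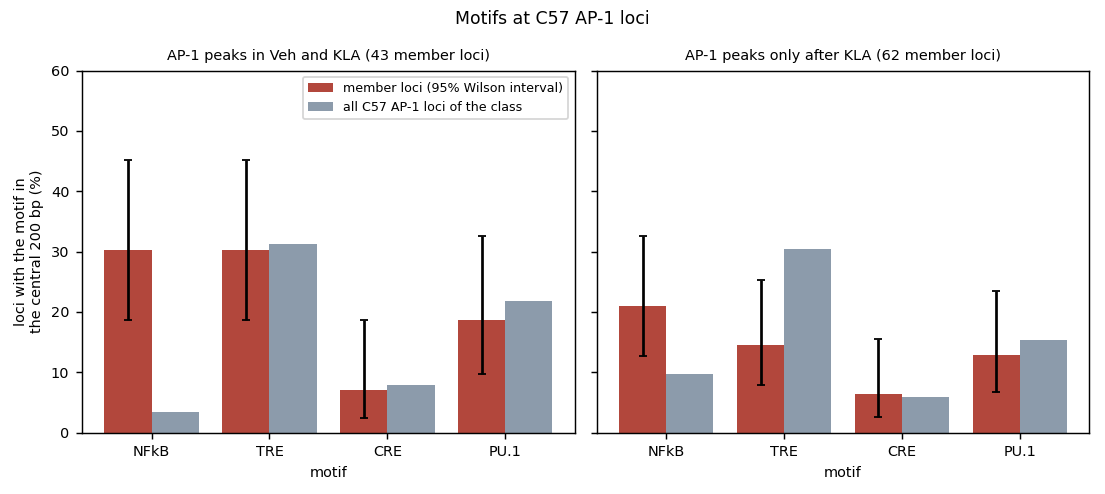
Share of C57 AP-1 loci (y axis, %) with a match to each motif (x axis) in the central 200 bp, at loci of both treatments (left) and of KLA alone (right), in members (red, with 95% Wilson intervals) and in all loci of the class (grey). The NFkB bars of members stand at 30.2% and 21.0%, above grey bars of 3.43% and 9.71%, and the TRE bar at the right stands at 14.5%, below 30.5%.

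The sequences of the bound loci were searched for motifs. The choice of members used no sequence, but several members are known targets of NFkB. Their share of loci with the NFkB motif is therefore not independent of that choice. A match to the NFkB motif was found in the central 200 bp of 26 of the 109 C57 AP-1 loci (23.9%, interval 16.8 to 32.7), against 5.53% of all C57 AP-1 loci. The TRE, the site that AP-1 itself prefers, was found at 22 (20.2%) against 27.8%, the CRE at 7 (6.42%) against 6.69% and the PU.1 motif at 18 (16.5%) against 19.1%. The NFkB share was 30.2% at member loci bound in both treatments against 3.43%, and 21.0% at those bound only after KLA against 9.71%. For the TRE these shares were 30.2% (interval 18.6 to 45.1) against 31.2% and 14.5% (interval 7.83 to 25.3) against 30.5%. The TRE share of members was thus near that of the genome at loci of both treatments and below it at loci of KLA alone. Within 1 kb of the start of a coding gene, 10 of 21 member loci had the NFkB motif (47.6%, genome 5.19%), and farther away 16 of 88 had it (18.2%, genome 5.59%). Nfkbie and Tnip1 had 5 loci with the motif each, Nfkbia, Bcl3, Tnfaip3 and Nfkb1 had 3, Nfkb2 had 2, Nfkbiz and Rel had 1, and Relb had none among its 2. Gained PU.1 loci of members had the NFkB motif at 8 of 43 (18.6%, genome 9.6%) and the PU.1 motif at 10 (23.3%, genome 21.5%), against 26 of 55 with the PU.1 motif at loci of both treatments (47.3%, genome 40.1%). A match is a run of letters and not a measured NFkB site, since no list of an NFkB subunit was analysed here.

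The other genes of the pathway, a list of 30 with kinases, adaptors, ubiquitin enzymes, further IkB genes and the subunit gene Rela, stood nearer to the genome. They had 217 C57 AP-1 loci, of which 90 had peaks only after KLA (41.5%, background 38.0%), 107 had peaks in both treatments and 20 only in Veh. After KLA, 21 of the 30 genes had more AP-1 loci than in Veh, 4 had fewer and 5 had the same number. The median was 5.5 loci after KLA and 3.0 in Veh, against 9.5 and 4.0 for the members. These counts and medians of genes were not made over all protein-coding genes. Over the genome, 38.0% of C57 AP-1 loci had peaks only after KLA and 12.9% only in Veh. Irak3, a decoy kinase that dampens TLR signals, had the most KLA loci, 17 against 8 in Veh. N4bp1, an inhibitor that binds ubiquitin, had 16 against 13, and Traf1, an adaptor that NFkB induces, had 13 against 4. PU.1 was listed at 161 of their loci in Veh and 188 after KLA. Over the genome, 21.0% of PU.1 loci had peaks only in Veh and 19.0% only after KLA.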

How the data were processed

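ChIP-seq peaks of 9 factors in TGEMs were analysed as 30 deposited lists, 1 for each condition, and the 4 input samples had no list used here. The authors mapped reads to mm10 with Bowtie2 (BALB reads to a strain genome, shifted back to mm10), called peaks against input with HOMER, compared replicate experiments by IDR (irreproducible discovery rate) and dropped those at or above 0.05. The deposited count of a peak is a whole number that is not scaled to library size, and the deposited score is the scaled IDR, from 540 to 1000. The label of the PPARg list names 3 antibodies. How counts of replicates were combined is not given in the sources used here. In BALB Veh cells there were no Fos peaks and 9 JunB peaks.

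The lists were analysed in Python 3.11.15 (pandas 2.3.3, numpy 2.4.6, scipy 1.17.1, matplotlib 3.10.9). Genes were those of GENCODE M21. Percentiles count ties as 0.5. A locus counted as bound by a factor where any of its peaks came from that list, and the highest percentile was used where it had several. A locus bound in both lists of a pair can therefore hold peaks that do not overlap each other. Motifs were exact consensus matches on both strands in the central 200 bp of the RefSeq sequence of GRCm38. The NFkB motif was written with ambiguity codes, and loci off the main chromosomes were left out of motif shares. No significance test was possible with 1 list per condition, so shares stand beside those of all loci. The locus, percentile, window and motif steps were checked on simulated data.

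The genes, the list of 30 other pathway genes and the comparisons were chosen with earlier results of these data known. All 10 members were named, with the locus of each that had peaks in the most lists (ties by the highest median percentile) and every locus with a peak in the strongest 5% of an AP-1 list. Sequences were meant for the former, and 2 more were chosen after their values were seen. Any other locus named was also chosen after its values were seen. Values were given for at most 3 other pathway genes by name. The alternatives were windows of 5 kb and 50 kb, midpoints within 100 bp, a scaled score of at least 830, the strongest 50% of peaks per list, pairs of lists cut to 1 length and the central 100 bp.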

Additional observations from a re-analysis of the deposited data

How the results depend on the processing

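Of 92 alternative values of 16 results, 79 stayed within the 95% Wilson interval of the value reported, or within 1.5 times for the count of loci, and the cause of the other 13 was not tested unless named. The number of member loci was 298 with 50 kb on each side and 101 in the strongest 50% of each list, because the window was longer or the lists shorter. With a scaled score of at least 830, the share of C57 KLA loci also bound in BALB was 100% for Fos and 95.2% for JunB, and the share of Jun loci kept in PPARgKO was 8.7% (genome 19.5%). In the strongest 50% of each list, Fos was shared at 100% and JunD at 91.8%, ATF3 was kept at 95.0%, Jun at 6.25% (genome 25.3%) and JunD at 81.2%, and AP-1 loci with a PU.1 peak made up 39.3%. With both lists cut to the same number of peaks, 40.6% of ATF3 loci were gained, and 36.4% of Jun loci were kept in PPARgKO (genome 53.0%). With the central 100 bp, 14.7% of AP-1 loci had the NFkB motif, against 3.32% of the genome, since fewer bases were searched. Of 81 alternative values with a share of the genome beside them, 4 changed sides: Jun loci also bound in BALB (51.5% against 54.1%, strongest 50%), AP-1 loci with PU.1 (49.6% against 50.7% with midpoints within 100 bp, and 39.3% against 44.6% in the strongest 50%) and Jun loci kept in PPARgKO (22.5% against 22.1%, 50 kb). The gained shares of C57 ATF3, Jun and JunD and the C57 share with peaks only after KLA stayed above the genome in all their alternatives, which were not run for the gained shares of other factors or of BALB. No paired analysis was possible because each condition has 1 list. Lists of Fos and JunB in Veh were too short to show how far binding was absent.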
